A study of Danio rerio with 18 samples.

Results

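The subject is a set of 84 zebrafish transcripts. Their level was lower in embryos treated with all-trans retinoic acid (atRA) at 12 somites and again at 24 hpf. At 80% epiboly the ratio of treated to control embryos stayed close to 1 once a constant, given below, was added to each mean. Most of the 84 were hardly present at that stage. The members are 84 of the 58549 Ensembl transcript IDs counted, or 0.143%. CPM is the count of a transcript divided by the total count of its library and scaled to 1000000. For each stage the log2 ratio of the mean CPM with atRA to the mean CPM in controls was taken after adding 0.5 CPM to each mean. These ratios are called d80, d12 and d24. Members had d12 and d24 of at most -1 and an absolute d80 under 0.5. A limit of 250 members was set and was not reached.

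Whole wild-type Danio rerio embryos, raised at 28°C, were collected late in gastrulation (80% epiboly), at 12 somites and at 24 hours post fertilisation (24 hpf). At each of the 3 stages 3 libraries came from embryos given 0.1 µM atRA and 3 from embryos given DMSO, the solvent, which are the controls. For the 80% epiboly embryos exposure started at 30% epiboly. For those taken at 12 somites or 24 hpf it started at 80% epiboly, so the stages differ in the start and length of exposure as well as in age. During epiboly the blastoderm thins and moves down until it encloses the yolk cell. Somites are blocks of mesoderm laid down one after another on both sides of the notochord. The labels do not say whether the replicates were separate clutches or how many embryos went into each library, so p-values measure only the spread between these libraries, which may be technical.

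Retinoic acid is made from vitamin A and acts by binding nuclear retinoic acid receptors, which sit on DNA as pairs with retinoid X receptors and switch nearby genes on or off. In vertebrate embryos it is produced in the trunk mesoderm and broken down at the head and tail ends by Cyp26 enzymes. The resulting gradient helps to set positional identity along the hindbrain and trunk, and excess retinoic acid is known to disturb formation of the head, heart and tail. These are background statements. The files pair no transcript ID with a gene, and 0 of the 58549 IDs matched the gene tables used here, so the members carry no gene names or roles. They are described below by level, course and depth of change. Only 4 IDs are printed, and no sequences were at hand for them. Whole embryos were measured, so fewer cells of a type and less RNA per cell cannot be told apart.

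The members were chosen on the values of these same libraries. The falls at 12 somites and 24 hpf and the small difference at 80% epiboly are therefore descriptions of the choice, not tests of it. Of all IDs, 576 had a d12 of at most -1, and 458 of these had a d80 within the bound. At 24 hpf 742 had a d24 of at most -1, and 674 of these had a d80 within the bound. Meeting both falls left 94 IDs. Of these 94, 5 were dropped because d80 was at most -0.5 and 5 because it was at least 0.5. The 84 members are 18.3% of the 458 and 12.5% of the 674.

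Values close to the bounds differed little across them. The 2 members just inside the d12 bound had -1.02 and -1.01, and the nearest IDs outside had -0.995 and -0.992. For d24 the values just inside were -1.02 and -1.01, and both nearest IDs outside stood at -0.997. For d80 the members just inside had 0.447 and -0.498, and the nearest IDs outside had -0.546 and 0.633.

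**Figure D1:**
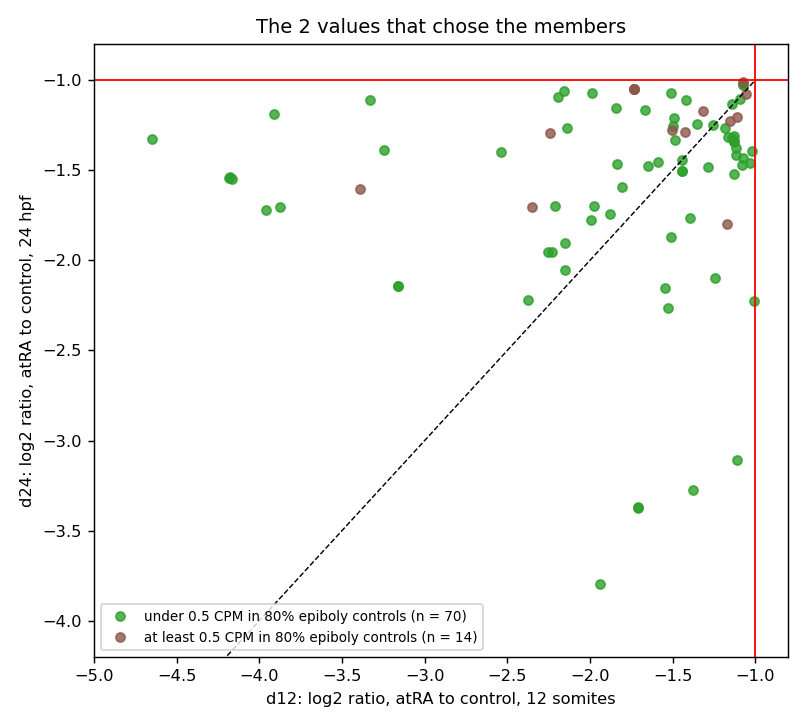
Each point is 1 of the 84 members, with d12 on the x axis and d24 on the y axis (log2 ratios of mean CPM + 0.5). Red lines mark the bounds of -1 and the dashed line equal values. The points reach -4.65 on d12 and -3.80 on d24, and 70 members (green) stood under 0.5 CPM in the 80% epiboly controls.

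Not all members are separate observations. Reads can be credited to several IDs of overlapping or near-identical sequence, and 4 members had the same count as some other ID in each of the 18 libraries. IDs whose counts lay within 10 counts or 10% of each other in every library were joined into families. The 84 members fell into 68 families: 57 held a single member and 11 held several, covering 27 members, with at most 4 in a family. The criterion leaves apart IDs whose counts run in proportion but differ by more, so 68 may overstate the number of separate observations. Counts of members below are counts of IDs, and numbers of families are given where they matter.

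Library totals ran from 80522765 to 115511468 transcript counts at 80% epiboly and from 77807705 to 88004323 at 12 somites. The 24 hpf controls held 68391282 to 72734557 and the atRA libraries of that stage only 38673189 to 50505506. Over the members, the median SD of log2(CPM + 0.5) between replicates was 0.052 to 0.070 in the groups of the first 2 stages. It was 0.199 in the 24 hpf controls and 0.168 with atRA at 24 hpf. Control replicate 2 at 24 hpf held the highest value of its group for 47 members and the lowest for 33. Relative to the other 2 controls its median deviation was 0.14 (log2) over the members and -0.13 over all transcripts tested at 24 hpf. The atRA replicate 3 of that stage held the highest value of its group for 45 members, and its median deviation was 0.14 over the members and -0.14 over all transcripts tested. The part of these 2 libraries in the results was not tested beyond the values without them given below.

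At 80% epiboly, before the falls, most members were hardly present. In controls of that stage 70 of the 84 had a mean under 0.5 CPM, 6 of them had no count in any of the 6 libraries, and the median over all 84 was 0.080 CPM. No library of the stage, with or without atRA, held more than 0.702 CPM of any of these 70. With 0.5 CPM added to each mean, d80 is drawn towards 0 for such transcripts, so the bound on d80 rests on a measured level for few members. Only 8 members reached 1 CPM in the 80% epiboly controls. For these 8, d80 ran from -0.40 to 0.19. In CPM the atRA libraries lay wholly below the controls for 13 of the 84 and wholly above for 8, and for 63 they overlapped. Of the transcripts tested at this stage, 15.3% lay wholly below and 27.6% wholly above. Only 33 of the 84 members were among those tested, so these shares are over unlike sets.

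Where 80% epiboly could be fitted, some members did differ with atRA there. Of the 33 members that passed the filter on low counts, edgeR's quasi-likelihood test called 6 lower and 0 higher at a Benjamini-Hochberg adjusted p under 0.05. Of all 38203 transcripts tested at this stage 13.7% were called lower and 14.1% higher. The bound on d80 is part of the rule, so nothing is read from the comparison. At an unadjusted p under 0.05, 8 members were lower and 2 higher, and the DESeq2 test called 3 lower and 0 higher. The shares of all transcripts are not given for these counts, so nothing is read from them. The log2 fold changes of the 6 called members ran from -1.72 to -0.40. The 4 steepest belonged to members under 0.5 CPM in these controls, whose d80 is drawn towards 0 by the added 0.5 CPM. Without control replicate 1, 3 members were called.

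In controls the members came on after gastrulation. The median control level rose from 0.080 CPM at 80% epiboly to 2.26 CPM at 12 somites and 6.44 CPM at 24 hpf. From 80% epiboly to 24 hpf, 78 of the 84 rose by at least 2-fold on means with 0.5 CPM added, and 3 fell by as much. With TMM factors over all 18 libraries, which shift 12 somites against 80% epiboly controls by -0.37 (log2), 76 rose and 3 fell. The 78 are 92.9% of the members, against 31.9% of the 43650 transcripts tested at 12 somites or 24 hpf. A fall of at least 2-fold needs a control level to fall from, and the same control libraries enter the rule, so this difference is a description.

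Counts of calls between control stages are given as a description too, since the rule used the same control libraries, and the 70 members under 0.5 CPM at 80% epiboly owe their place in the first fit mainly to their 12 somites level. From 80% epiboly to 12 somites edgeR called 77 of the 84 members higher and 4 lower at an adjusted p under 0.05, where 44.3% of all transcripts tested were called higher and 39.9% lower. From 12 somites to 24 hpf it called 52 higher and 18 lower, beside 32.3% and 26.7% of all tested, and 14 were not called. The median log2 fold change of the members over this second interval was 0.95, beside 0.017 for all transcripts tested.

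After 12 somites the members took 3 courses in controls. In 40 the control mean rose by at least 2-fold to 24 hpf, from a median of 1.77 CPM to 9.29 CPM. In 35 it moved by less than 2-fold in either direction, with medians of 2.96 CPM and 4.58 CPM. In 9 it fell by at least 2-fold, from 8.84 CPM to 3.75 CPM. These 40, 35 and 9 members formed 30, 32 and 6 families. Levels in CPM are not divided by transcript length, so they show how many reads a transcript took, not how many molecules it had next to another transcript.

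**Figure D2:**
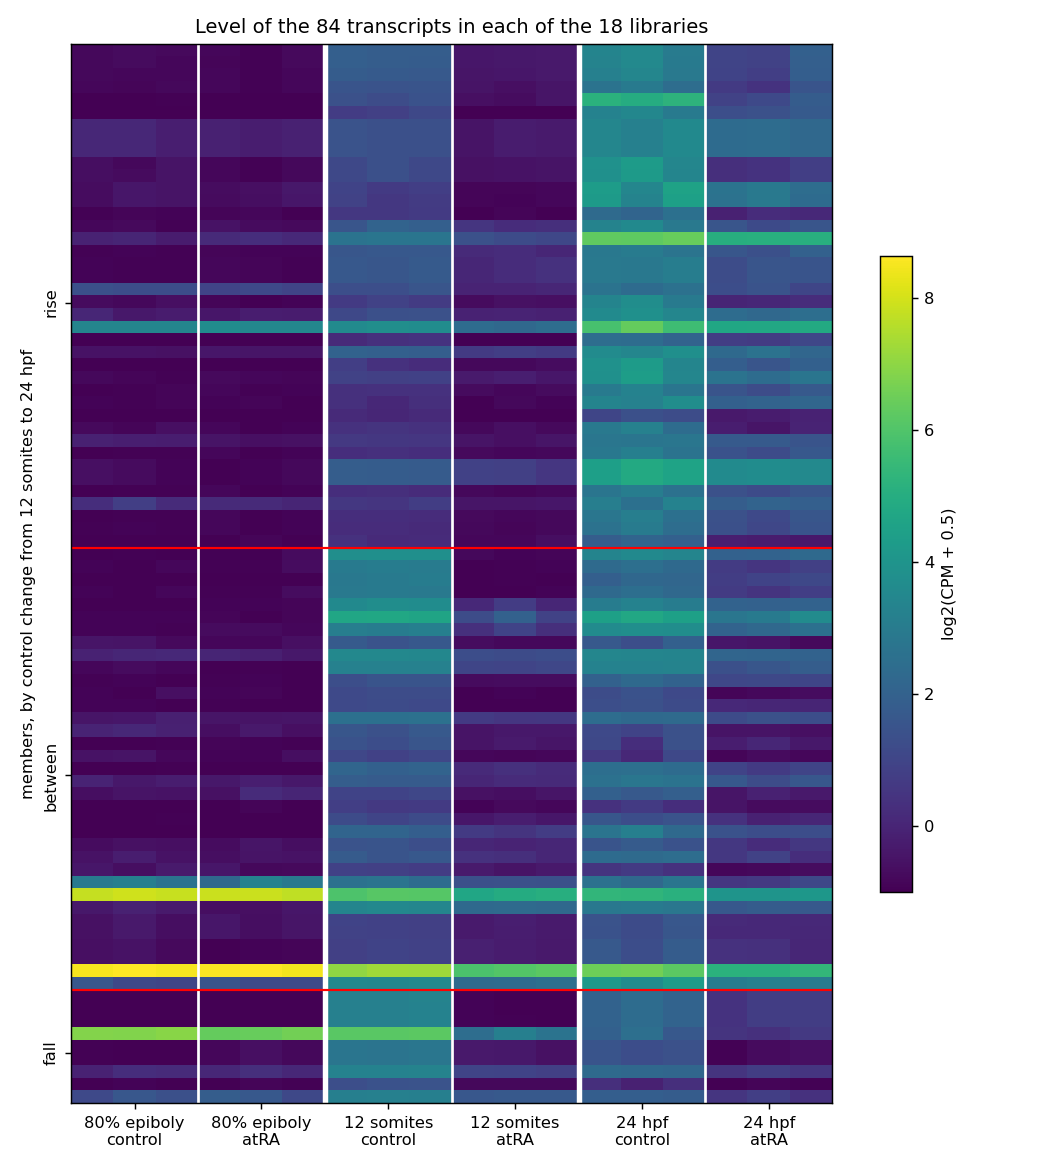
Rows are the 84 members and columns the 18 libraries, 3 per group. Colour gives log2(CPM + 0.5). Red lines part the 40 members whose control level rose from 12 somites to 24 hpf, the 35 in between and the 9 that fell. At 12 somites and at 24 hpf the atRA columns are darker than the control columns in every row, and most rows are dark in all 6 columns of 80% epiboly.

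At 12 somites, atRA left a median of 12.0% of the control level. The median level was 2.26 CPM in controls and 0.263 CPM in treated embryos, and the median d12 was -1.52, beside -0.020 over all transcripts tested. The share left ran from 0% to 46.0%, and for 33 members it was under 10%. The atRA mean was under 1 CPM for 67 of the 84. In each of the 84 the highest atRA library lay below the lowest control library, which was the case for 26.1% of all transcripts tested at this stage. edgeR called all 84 lower, where 18.5% of all tested were called lower, and the rule used this contrast. All 84 passed the filter on low counts, but 29 had a mean under 10 counts with atRA and passed only through their controls.

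For 11 members, in 8 families, the loss at 12 somites reached the limit of counting. Each atRA library held at most 3 counts of them, which corresponds to 0.035 to 0.039 CPM at these depths. Their control means were 0.585 to 8.91 CPM. Against that limit their fall was at least 16.2-fold for the lowest control level and at least 246-fold for the highest. All 11 stood under 0.5 CPM at 80% epiboly.

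At 24 hpf 10 of these 11 transcripts were above that limit in every atRA library, and the other held 2, 3 and 6 counts. The atRA means of the 11 were then 0.080 to 2.33 CPM, with 2 to 144 counts per library, and their control means 1.80 to 9.0 CPM. At 24 hpf the share of the control level was 4.22 to 36.6%, with a median of 26.1%, beside a median of 0.226% at 12 somites. Having been picked for their low atRA counts at 12 somites, they could hardly go lower under atRA, so the change between the stages is a description. In controls over the same interval edgeR called 3 of the 11 higher and 6 lower, beside 32.3% and 26.7% of all transcripts tested. The 11 form only 8 families, so nothing is read from these counts.

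At 24 hpf the falls were shallower in relative terms but again covered every member. The median share left was 27.6%, with a range of 3.85 to 48.2%, and 13 members were under 10%. The median level was 6.44 CPM in controls and 1.93 CPM in treated embryos, and the median d24 was -1.42, beside -0.080 over all transcripts tested. The highest atRA library lay below the lowest control library for all 84 members, and for 21% of all transcripts tested. edgeR called all 84 lower, beside 5.51% of all tested, again on a contrast that the rule used. The atRA mean was under 10 counts for 9 members.

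Fewer members were called at 24 hpf when some single libraries were left out. Of the 84, 41 were called without atRA replicate 1, 54 without atRA replicate 2 and 56 without control replicate 1. Without control replicate 2 all 84 were called, and without atRA replicate 3 the count was 71. Such fits also have a library fewer from which to estimate the spread, and what lowered the counts was not tested. The shares of all transcripts called in these fits are not given, so nothing is read from the counts about the members.

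The member set itself also changed when single libraries of this stage were left out. The rule found 92 IDs without control replicate 2 at 24 hpf, and 79 of these were among the 84. It found 90 without atRA replicate 3, of which 81 were among the 84.

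Just 1 member had at most 3 counts in each atRA library at 24 hpf. Its control mean was 0.620 ± 0.179 CPM (SD, n = 3), so that the fall was at least 9.09-fold against that limit. The limit of 3 counts is easier to meet at 24 hpf, where it stands at 0.059 to 0.078 CPM because the atRA libraries are shallower.

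ENSDART00000006043.5 had the lowest sum of d12 and d24 among the members. At 12 somites its control libraries held 13.2, 13.5 and 13.5 CPM and its atRA libraries 0.077, 0.035 and 0.047 CPM, which are 6, 3 and 4 counts. The groups lay far apart, and 0.395% of the control level was left. At 24 hpf the control libraries held 9.68, 11.3 and 10.001 CPM and the atRA libraries 3.52, 3.57 and 4.38 CPM. The groups again did not overlap, but 37.0% of the control level was present. At 80% epiboly no library held more than 9 counts of it.

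The log2 fold change with atRA of this transcript was -7.95 at 12 somites and -1.34 (SE 0.20) at 24 hpf, where it was not called without atRA replicate 1. No SE is given where its few atRA counts at 12 somites enter, since the one derived here is too small for them. From 12 somites to 24 hpf its level under atRA differed by 6.23 (log2). That value rests on 3 to 6 counts per library at 12 somites and on libraries that chose it. In controls the difference was -0.37 (SE 0.13). Treated embryos held very few reads of it at 12 somites and more at 24 hpf.

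ENSDART00000099532.4 showed the reverse order of depth on d. At 12 somites its control libraries held 2.09, 1.87 and 2.22 CPM and its atRA libraries 0.154, 0.116 and 0.234 CPM. At 24 hpf the control libraries held 34.9, 31.0 and 37.2 CPM and the atRA libraries 1.35, 1.71 and 2.97 CPM. Controls thus rose steeply, and treated embryos at 24 hpf stood near the level of controls at 12 somites. At 80% epiboly no library held more than 2 counts.

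Its share of the control level was 8.16% at 12 somites and 5.85% at 24 hpf. The log2 fold change was -3.58 at the earlier stage, on 10 to 20 counts per atRA library, and -3.96 (SE 0.32) at the later one. On this scale the difference between the stages, -0.38 (SE 0.47), was not called by edgeR. The larger gap between a d12 of -1.94 and a d24 of -3.80 goes with the 0.5 CPM added to each mean, which weighs more on the low levels at 12 somites.

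ENSDART00000013085.8 had the largest rise of all members in controls from 80% epiboly to 24 hpf, by 6.43 (log2 of means with 0.5 CPM added), among members of at least 10 CPM at 24 hpf. At 80% epiboly its control libraries held 0.453, 0.493 and 0.329 CPM and its atRA libraries 0.613, 0.702 and 0.584 CPM. The atRA libraries were the higher ones there, without overlap. The log2 fold change was 0.53 (SE 0.23) and was not called by edgeR.

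At 12 somites the control libraries of ENSDART00000013085.8 held 5.88, 6.14 and 6.18 CPM and the atRA libraries 2.13, 1.78 and 1.56 CPM. At 24 hpf the controls held 78.1, 75.5 and 83.8 CPM and the atRA libraries 32.2, 32.8 and 33.7 CPM. Treated embryos thus stood below controls at both stages, with 30.1% and 41.6% of the control level. From 12 somites to 24 hpf the level rose by 3.70 (log2, SE 0.09, adjusted p = 6.36e-07, edgeR) in controls and by 4.26 (SE 0.13, adjusted p = 1.08e-09, edgeR) under atRA. It was picked for its control rise to 24 hpf, and the libraries of both groups enter the rule. Both rises are therefore descriptions of the choice.

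ENSDART00000056748.3 had the next largest rise to 24 hpf among members of at least 10 CPM that had not been printed already, and reached its level by 12 somites. Its control libraries held 25.5, 25.9 and 24.4 CPM at 12 somites and 21.5, 26.6 and 21.5 CPM at 24 hpf. No change between these stages was called in controls (log2 fold change -0.11, SE 0.15, adjusted p = 0.539, edgeR). The atRA libraries held 1.84, 3.47 and 1.34 CPM at 12 somites and 6.43, 7.14 and 12.1 CPM at 24 hpf. They stayed below the controls at both stages, and the highest value at 24 hpf came from replicate 3.

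Under atRA this transcript rose between the stages by 2.05 (log2, SE 0.36, adjusted p = 0.000444, edgeR). The atRA libraries of both stages helped to choose it, so this rise is a description. The share of the control level was 8.78% at 12 somites and 36.8% at 24 hpf. Its fall at 24 hpf was no longer called by edgeR without control replicate 1, without atRA replicate 1 or without atRA replicate 2, where its log2 fold change was -1.41, -1.15 and -1.18.

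**Figure D3:**
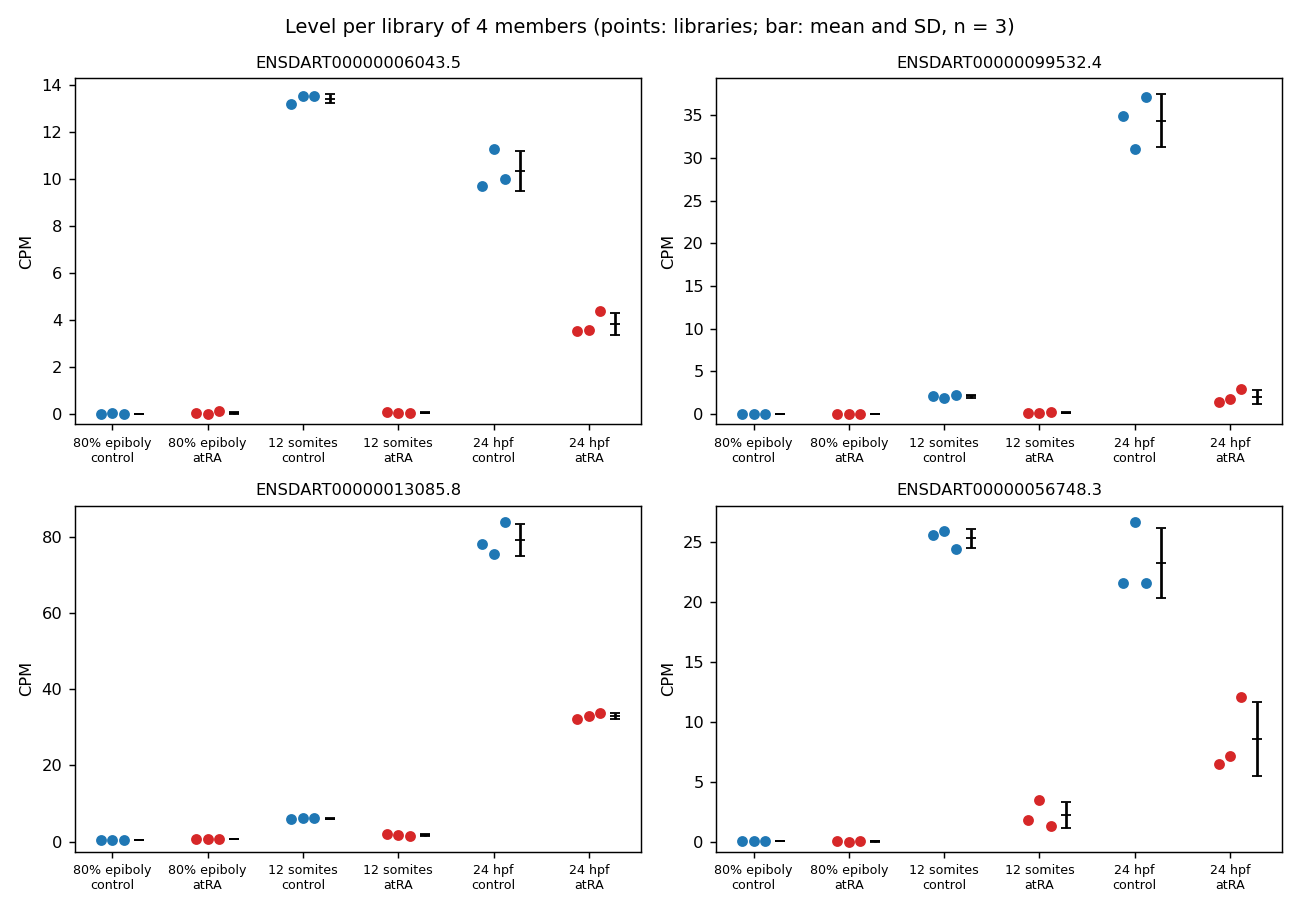
CPM of the 4 named transcripts in each library, with controls in blue, atRA in red and mean and SD beside each group (n = 3). ENSDART00000006043.5 and ENSDART00000056748.3 stand at 13.4 and 25.3 CPM in 12 somites controls and at 10.3 and 23.2 CPM at 24 hpf. ENSDART00000099532.4 and ENSDART00000013085.8 rise over the same interval to 34.4 and 79.2 CPM.

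A few members departed from the common course in controls because they were abundant in gastrulae. The 3 members with the most reads at 80% epiboly, each in a family of its own, took 95.5% of all member counts in the controls of that stage. The first held 357, 396 and 361 CPM in the 80% epiboly controls and 378, 390 and 352 CPM with atRA, and the groups overlapped. At 12 somites it held 131, 153 and 148 CPM in controls and 59.1, 65.9 and 74.0 CPM with atRA. At 24 hpf it held 90.6, 94.8 and 73.3 CPM in controls and 35.1, 35.5 and 40.8 CPM with atRA. Its control level thus went down from stage to stage, and atRA left a similar part of it at both later stages, 46.0% and 43.1%.

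The second had 223, 243 and 226 CPM in 80% epiboly controls and 230, 230 and 211 CPM with atRA, with overlap. At 12 somites its controls held 60.7, 68.6 and 68.1 CPM and its atRA libraries 25.7, 29.9 and 32.1 CPM. At 24 hpf these were 40.4, 38.7 and 33.7 CPM and 15.5, 15.2 and 16.8 CPM. It followed the first in its decline through development and in the part left, 44.4% and 42.0%. Counts do not show whether these 2 IDs come from related sequences.

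The third fell late in controls. It held 113, 111 and 119 CPM in the 80% epiboly controls and 72.2, 70.9 and 73.4 CPM at 12 somites, but 3.35, 5.23 and 2.66 CPM at 24 hpf. With atRA it held 81.9, 83.6 and 95.1 CPM at 80% epiboly, below every control, 4.87, 8.45 and 5.92 CPM at 12 somites, and 0.880, 0.776 and 1.03 CPM at 24 hpf. It was among the 6 members called lower at 80% epiboly (log2 fold change -0.46). The atRA values at 12 somites overlapped those of controls at 24 hpf.

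Summed over all members, the levels show how far these 3 weigh. The sum was 750 ± 31.6 CPM (SD, n = 3) in 80% epiboly controls and 716 ± 25.0 CPM with atRA. At 12 somites it was 597 ± 17.8 CPM in controls and 151 ± 11.4 CPM with atRA, which is 25.2% of control. At 24 hpf it was 864 ± 49.2 CPM and 293 ± 16.7 CPM, which is 33.9%.

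Without those 3 members the sum stood at 33.4 ± 2.60 CPM in 80% epiboly controls and 32.5 ± 1.78 CPM with atRA. It was 315 ± 1.82 CPM and 48.5 ± 1.99 CPM at 12 somites, so that 15.4% was left. At 24 hpf it was 737 ± 36.5 CPM and 239 ± 12.6 CPM, so that 32.5% was left. The sum over these 81 members thus grew from stage to stage in controls, and under atRA it grew from 12 somites to 24 hpf while staying below the controls of both stages.

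Between 12 somites and 24 hpf most members rose under atRA too. edgeR called 67 of 79 tested members higher and 10 lower, where 36.5% and 34.4% of all transcripts tested were called. On means with 0.5 CPM added, the median log2 change from 12 somites to 24 hpf was 1.25 under atRA and 0.81 in controls. Over all transcripts tested these medians were -0.053 and 0.017. Of the 40 members that rose by at least 2-fold in controls, all 40 were called higher under atRA. Of the 9 that fell in controls, 3 were called higher and 5 lower under atRA. These 9 form only 6 families, and the 3 called higher all belong to the same family. The atRA libraries of both stages enter the rule as well. Under atRA 29 members had a mean under 10 counts at 12 somites and 9 at 24 hpf. Those low only at 12 somites owe their place in this fit mainly to their 24 hpf level, so its counts are a description.

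The share of the control level was larger at 24 hpf than at 12 somites for 70 of the 84 members, which the rule partly sets through the lower control levels at 12 somites. On d, which adds 0.5 CPM, the fall was deeper at 12 somites for 52 and deeper at 24 hpf for 32. It differed by less than 1 (log2) for 63, was deeper at 12 somites by at least 1 for 15 members in 11 families, and deeper at 24 hpf by at least 1 for 6 members in 5 families. The order of the stages therefore depends on the scale for part of the members. The fits put the effect at 24 hpf above that at 12 somites for 71 members and below it for 13, and d and the fits gave the same order for 65. By the interaction of stage and treatment, edgeR called the effect less negative at 24 hpf for 37 members and more negative for 0 (adjusted p under 0.05), beside 8.1% and 7.85% of all transcripts tested. The interaction comes from the contrasts that chose the members, and nothing is read from it. At an unadjusted p under 0.05 the counts were 50 and 3, and the DESeq2 test gave 44 and 0. The shares of all transcripts are not given for these counts, and nothing is read from them either.

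The 6 members with the deeper d24 all rose at least 2-fold in controls from 12 somites to 24 hpf. Their control means at 24 hpf were 3.40 to 34.4 CPM and their atRA means 0.332 to 2.01 CPM. At 24 hpf 5.18 to 9.78% of the control level was left, and at 12 somites 8.16 to 13.2%. All 6 were called higher at 24 hpf than at 12 somites under atRA too, beside 36.5% of all transcripts tested. Several of the 6 had counts that ran roughly in proportion across the libraries, so they may not be separate observations. On means with 0.5 CPM added the rise was 0.50 to 1.91 (log2) there and 1.72 to 3.77 in controls. For each member the gap between these rises equals the difference of d24 and d12 that picked it. Where the level did not fall under atRA, that gap also required the 2-fold rise in controls. For the 15 the gap runs the other way by construction, so these courses are descriptions of the choice. The 15 with the deeper d12 held a median of 8.06 CPM in controls at 12 somites and 4.03 CPM at 24 hpf, and none of them rose by 2-fold in controls over that interval.

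On d, few members had deep falls at both stages. A d12 of at most -2 was found for 24 members and a d24 of at most -2 for 13, and 4 members in 3 families had both. The 0.5 CPM added keeps d from reaching -2 where the control level is low, so these counts depend on that constant. These 4 had control means of 1.79 to 6.22 CPM at 12 somites and 1.91 to 2.69 CPM at 24 hpf. Under atRA 0.89 to 4.02% and 4.22 to 6.86% of these levels were left. Another member, with control means of 2.14 and 0.620 CPM, kept 3.56% and 3.85%, but its d24 was only -1.10.

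**Figure D4:**
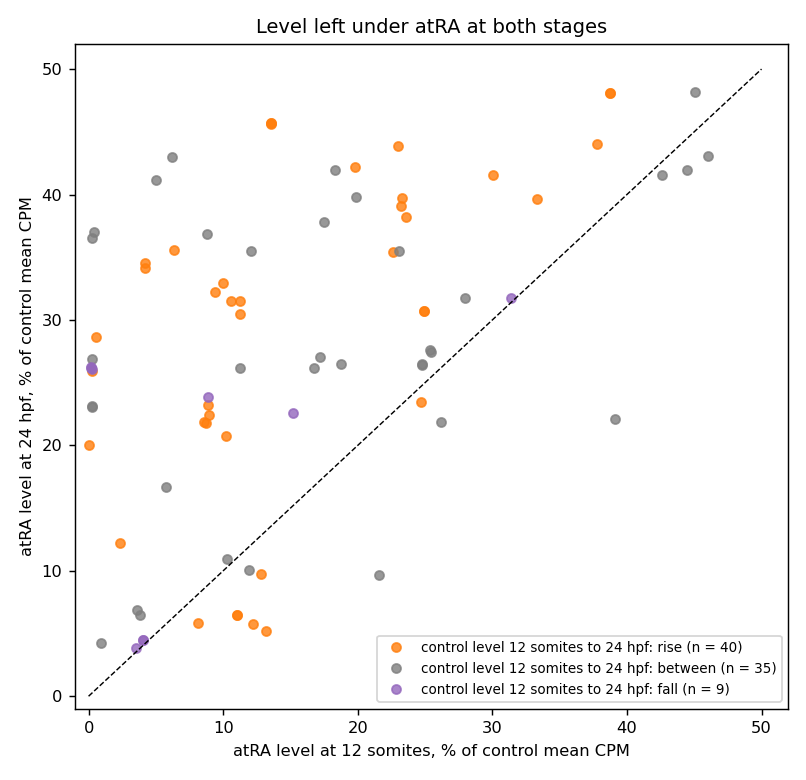
Level left under atRA as a percentage of the control mean CPM, at 12 somites (x axis) and at 24 hpf (y axis), for the 84 members. The dashed line marks equal percentages. Of the points, 70 lie above it, and colours give the control course from 12 somites to 24 hpf.

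Levels in treated embryos at 24 hpf were also set against those in controls at 12 somites. This comparison describes the chosen members and does not show how far the embryos had developed. The atRA mean at 24 hpf reached the control mean at 12 somites for 24 members and stayed under it for 60. The median ratio of these 2 means was 0.522, with a range of 0.011 to 5.43. All 24 belonged to the 40 whose control level rose by at least 2-fold after 12 somites, which the rule fixes in advance. With a d24 of at most -1 and a control rise under 2-fold, the other 44 could not reach the control level of 12 somites. Nothing is read from that split. In 16 of the 40 rising members the treated level at 24 hpf was still under the control level of 12 somites.

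**Figure D5:**
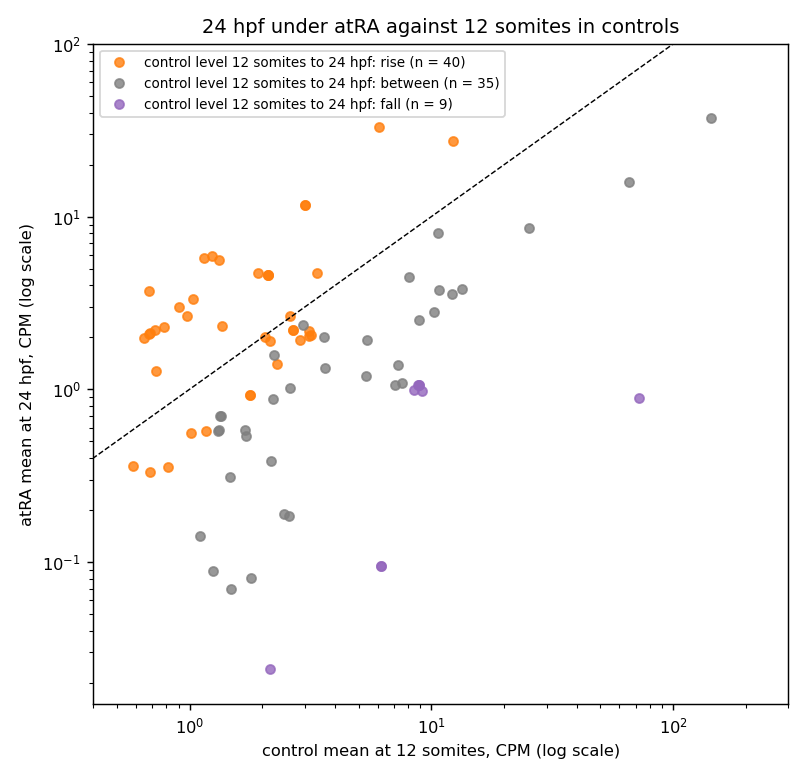
Mean CPM with atRA at 24 hpf (y axis) against mean CPM in controls at 12 somites (x axis), both on log scales, for the 84 members. The dashed line marks equal levels. The 24 members on or above it are all among the 40 that rose in controls (orange), as the bound on d24 requires.

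For scale, the opposite rule, with d12 and d24 of at least 1 and the same bound on d80, was met by 36 IDs. In that set 80.6% stood under 0.5 CPM in the 80% epiboly controls, beside 83.3% of the 84 members, and 69.4% rose by at least 2-fold to 24 hpf in controls, beside 92.9%. A fall to a d12 of at most -1 with an absolute d24 under 0.5 was met by 227 IDs, and a d24 of at most -1 with an absolute d12 under 0.5 by 499. Of these, 61.7% and 64.7% were under 0.5 CPM at 80% epiboly, and 67.4% and 80.2% rose in controls. Median control levels at 12 somites were 2.26 CPM for the members, 3.94 CPM for the 227 and 0.323 CPM for the 499. The sets were chosen on the same libraries, so these are descriptions, and differences between them were not tested.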

How the data were processed

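The authors deposited raw counts of reads per Ensembl transcript ID, 1 file per library. STAR, HTSeq and the build GRCz10 (danRer10) are named in the submitters' processing notes. Versions, annotation, strand setting and assignment of shared reads are not given in the sources used here. HTSeq's 5 closing lines name no transcript and were left out throughout. Their shares were 16.9 to 18.9% for ambiguous reads, 3.1 to 6.35% for reads outside any feature, and 7.12 to 9.38% for multiply aligned reads. No 2 libraries of a group were identical (0 pairs).

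The members and lists were chosen with earlier results of these data known. edgeR 4.0.16 in R 4.3.3 (filterByExpr, TMM, glmQLFit, glmQLFTest, Benjamini-Hochberg over all transcripts tested) was fitted to the 6 libraries of 2 groups, or to 12 for the interaction of stage and treatment, without pairing by replicate number. SE was derived from the fold change and its F statistic. It is approximate, and it was left out for large changes that rest on few atRA counts, where it is too small. Tests were tried on simulated data. Planned gene lists could not be used without gene names. Named transcripts were the 2 with the lowest d12 + d24 and at least 10 control counts at both later stages, then the 2 others with the largest control rise from 80% epiboly to 24 hpf and at least 10 CPM there, leaving out IDs with identical counts. The limit of 3 counts is the highest count allowed in each atRA library. The bounds set the control mean against that limit and make no allowance for counting error or for the spread between libraries. Alternatives, DESeq2 1.42.0 among them, are given at the end.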

Additional observations from a re-analysis of the deposited data

Results flagged for a closer look

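The interaction of stage and treatment was called for 37 of the 84 members, in 29 families (edgeR, adjusted p under 0.05). In each of the 37 the effect was less negative at 24 hpf, and for 0 it was more negative, beside 8.1% and 7.85% of all 44034 transcripts tested. At an unadjusted p under 0.05 there were 50 and 3, and the DESeq2 test called 44 and 0, where the shares of all transcripts are not given. The interaction is built from the contrasts that chose the members, so the counts are a description and nothing is read from them.

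The named transcripts below were each called by the same interaction (edgeR, adjusted p under 0.05), and their values are descriptions for the same reason. ENSDART00000006043.5 had a difference of 6.61 (log2), ENSDART00000056748.3 of 2.16 (SE 0.46) and ENSDART00000013085.8 of 0.55 (SE 0.15). In all 3 the effect was less negative at 24 hpf. The atRA libraries at 12 somites held 3 to 6 counts of the first, so its difference rests on few reads and no SE is given.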

How the results depend on the processing

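The number of members was 172 with 0.1 CPM in place of 0.5 CPM added (65 of them among the 84), 51 with 1 CPM added (49 shared), 71 with TMM-scaled CPM, and 8 where at least 1 CPM was asked of the 80% epiboly controls. Leaving out 1 library gave 83 to 92. Asking for 10 counts in every library left, by construction, 54 members called lower at 12 somites, 31 called between the control stages 80% epiboly and 12 somites, 50 called between 12 somites and 24 hpf under atRA and 16 for the interaction. At an adjusted p under 0.01, 54 were called at 24 hpf and 3 at 80% epiboly. The 80% epiboly count of 6 was 15 without a filter on low counts and 3 by the DESeq2 test. Leaving out 1 library gave 84 calls throughout at 12 somites, 41 to 84 at 24 hpf and 3 to 9 at 80% epiboly, 3 being without control replicate 1. It gave 29 to 54 for the interaction, the highest without 24 hpf control replicate 2, and 81 throughout, 65 to 75 and 72 to 78 for the 3 comparisons between stages. With TMM over all 18 libraries the members' sums were 890 and 796 CPM (control and atRA) at 80% epiboly, 549 CPM in 12 somites controls and 791 CPM in 24 hpf controls. The replicate numbers were not taken as pairs, since no comparison had all correlations over 0.1. For replicates 1, 2 and 3 the correlation of deviations from the group means was -0.09, 0.10 and 0.061 in 80% epiboly libraries. It was 0.075, 0.022 and 0.031 among those of 12 somites and 0.17, -0.73 and -0.76 among those of 24 hpf. Between the controls of 12 somites and 24 hpf it was 0.090, 0.44 and 0.29, between those of 80% epiboly and 12 somites 0.022, -0.13 and -0.14, and between the atRA libraries of 12 somites and 24 hpf 0.018, -0.045 and 0.00029. With the replicate block 8 members were called at 24 hpf, 84 at 12 somites, 5 at 80% epiboly and 31 for the interaction, and the falls of ENSDART00000006043.5, ENSDART00000013085.8 and ENSDART00000056748.3 at 24 hpf missed the threshold. With 1 ID per family, chosen after seeing the data, all 68 were called lower at 12 somites and at 24 hpf. Among 125 recomputed values of the named transcripts, 117 had the same sign and call as reported, and 8, all at 24 hpf, kept the sign but missed the threshold. The causes of these shifts were not tested, apart from those set by construction.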
